A study of Mus musculus with 12 samples.

Results

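Melanocytes, the pigment cells of the hair follicle, were compared with 4 other populations of the follicle in RNA sequencing of cells sorted from mouse back skin. The comparison used 10 of the 12 libraries of the series, with 2 libraries of melanocytes against 2 each of matrix, outer root sheath, dermal papilla and dermal sheath. A gene was called melanocyte-restricted where both melanocyte values lay above all 8 values of the other populations on the log2(FPKM + 1) scale, FPKM being a fragment count corrected for how long a transcript is and how deep its library. This held for 1718 of the 19150 genes in the table, and for 1547 of the 13793 genes that passed a filter on low values, which is 11.2% of them. The 2 dermal fibroblast libraries hold transcripts of melanocyte markers, from a source that was not tested, so they entered no comparison and their level is given beside many of the genes.

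All populations came from the dorsal skin of CD1 mice, an albino outbred stock, at postnatal day 5, and the labels give no genotype or treatment that differs between groups. The matrix is the dividing epithelium at the base of the follicle, the outer root sheath its outer epithelial layer, the dermal papilla the mesenchymal cluster that signals to the epithelium, and the dermal sheath the mesenchymal layer around the follicle. The wider study is about how the dermal sheath contracts while hair follicles regress. Gates and markers of the sort are not given in the sources used here, so a gene used to sort melanocytes would differ through the sort itself.

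Melanocytes arise from the neural crest and settle in the growing follicle, where they make melanin in melanosomes, organelles related to lysosomes, and hand them to matrix keratinocytes. Mitf, a basic helix-loop-helix factor, drives the genes of melanin synthesis together with Sox10 and Pax3. The cells depend on signals of their surroundings, among them Kit ligand, endothelin 3 and the melanocortin system, in which agouti protein blocks the receptor Mc1r.

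The 5 melanocyte markers Dct, Tyr, Pmel, Mlana and Sox10 summed to 13578 and 10705 FPKM in the melanocyte libraries, against 15.5 to 89.1 FPKM over the 8 others, and 6712 and 6108 FPKM in dermal fibroblasts, so the label held. Both dermal papilla libraries were at the top of the 8, with 89.1 and 79.2 FPKM. The list of 12 basal and outer root sheath keratinocyte genes summed to 219 and 208 FPKM in melanocytes against 5749 and 5837 in outer root sheath, and the 12 fibroblast genes to 68.7 and 47 FPKM against 14258 and 12718 in dermal sheath. Ptprc, the pan-leukocyte marker, and the mast cell gene Cpa3 were listed at 0 in both melanocyte libraries. The mast cell tryptase gene Tpsb2 had 15.4 and 27.3 FPKM there. In bulk samples, fewer cells of a type and less RNA per cell cannot be told apart. FPKM summed to between 373066 and 524040 per library. Read depth is unknown. No pair of libraries had more than 20% of its low values on 1 common step, so whole reads were not recovered. Pairs of second libraries had 8.88% to 19.97% there, against at most 3.93% in all other pairs. On that step, low values in the second papilla and sheath libraries were 0.502 and 0.492 of those in the second melanocyte library. For the second matrix and outer root sheath libraries these ratios were 1.22 and 1.12. Whether the steps reflect read depth was not tested. Malat1, an abundant nuclear RNA, was listed at 0 in all 6 dermal libraries and had 1734 to 5039 FPKM in the other 6. In the other direction, 6 genes were listed at 0 in the 6 other libraries and had at least 5 FPKM in all 6 dermal ones. The dermal and the other libraries were thus set apart by the table itself, and such zeros enter the comparisons of melanocytes with papilla and sheath. Per the labels, barcodes were assigned to 3 samples with 2 replicates each, and which populations shared a set is not stated, so gene lists are also counted against each population apart. Whether the 2 libraries of each population stem from different animals is not labelled, so p-values measure the spread between libraries, which may be technical.

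Melanocytes were set against the unweighted mean of the 4 populations to ask which genes mark the pigment cell within the follicle. With a call at an adjusted p under 0.05 and an absolute log2 difference of at least 1, 1451 genes (10.5% of those tested) were higher and 2133 (15.5%) were lower in melanocytes. With a pseudocount of 5 these counts were 841 and 1014. Against single populations, 2003 genes (14.5%) were higher and 1943 (14.1%) lower than in matrix, and 1780 (12.9%) were higher and 1962 (14.2%) lower than in outer root sheath. Against dermal papilla, 1733 genes (12.6%) were higher and 2764 (20%) lower. With quantile normalization those 2 counts were 2252 and 2223, so the excess of lower calls against the papilla depends on the scaling. Against dermal sheath, 2088 genes (15.1%) were higher and 2709 (19.6%) lower. With quantile normalization these were 2434 higher and 2322 lower. With median scaling they were 1766 higher and 2961 lower against sheath and 1427 higher and 3028 lower against papilla, so the excess of lower calls depends on the scaling here too. Melanocyte libraries listed 5195 and 5333 genes at 0, against 2677 to 3391 in the papilla and sheath libraries. Matrix and outer root sheath libraries listed 4393 to 5058, so many zeros were not particular to melanocytes. The part of depth in the lower calls was not tested. Restriction and test use the same values, so a low p of a restricted gene adds no independent support to its rank.

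**Figure D1:**
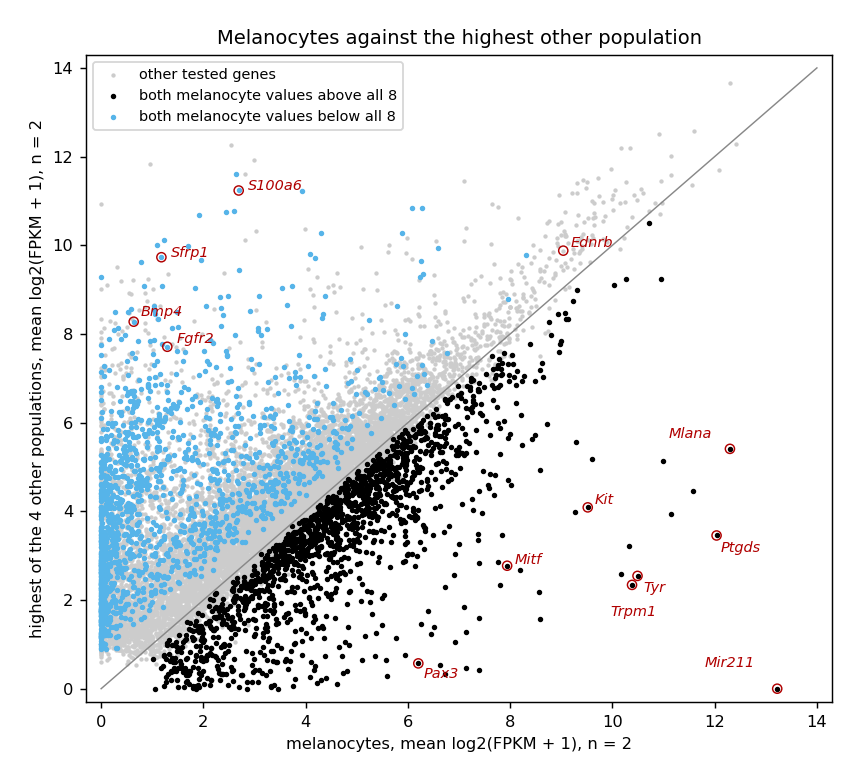
Mean log2(FPKM + 1) of each tested gene in melanocytes (horizontal axis, n = 2) and in the highest of the 4 other populations (vertical axis, n = 2); black points are the 1547 restricted genes, blue points the 1478 genes below all 8 others, and red rings mark named genes. Tyr, Mlana and Ptgds lie far below the diagonal, while Ednrb lies above it because dermal sheath is higher.

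Many restricted genes stood less than 2-fold above the nearest population. Of the 1354 restricted genes with at least 5 FPKM in melanocytes, 598 were at least 2-fold above the highest other population on the log2(FPKM + 1) scale, 241 at least 4-fold, 51 at least 16-fold and 15 at least 64-fold. The population closest to melanocytes was matrix for 361 of the 1354, outer root sheath for 293, dermal papilla for 377 and dermal sheath for 320, with populations tied for 3. Among the 51 genes it was dermal papilla for 29, matrix for 4, outer root sheath for 8 and dermal sheath for 9, with Mir211 tied at 0 in all 4, and dermal papilla is also the population with the highest sum of melanocyte markers. Its part in that count was not tested. Without the first melanocyte library 2466 tested genes met the rule, since 1 value had then to clear the 8 others. At the border of the rule, Rnf5 had 97 and 56.4 FPKM in melanocytes and at most 56.4 elsewhere, and Ppp5c and Pigh were the next inside. Pafah1b1, just outside it, had 44.7 and 63.2 FPKM in melanocytes and up to 44.7 in another library, and Snx13 and Chka also missed by the smallest gaps.

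The genes that make melanin were the clearest group. All 14 listed melanin enzymes and melanosome proteins were tested, were restricted and were higher in melanocytes. Their median log2 difference was 7.13, against -0.07 over all tested genes. For this and the lists below, shares over all tested genes were 10.5% higher, 15.5% lower and 11.2% restricted. Against single populations these shares were 12.6% to 15.1% higher and 14.1% to 20% lower. Tyr, which encodes tyrosinase, the enzyme of the first step of melanin synthesis, had 1239.8 and 1668 FPKM in melanocytes, against 1.91 to 6.58 FPKM (median 3.35) over the 8 libraries of the other populations, and 232 and 380.4 FPKM in dermal fibroblasts. The melanocyte values lay far above the 8 others and did not overlap with them (log2 difference 8.32 ± 0.31 (SE), adjusted p = 7.47e-08), in a stock whose coat is albino. Dct, which encodes dopachrome tautomerase, had 4064 and 2298 FPKM in melanocytes, against 3.64 to 22.7 FPKM (median 9.11) over the 8 libraries of the other populations, and 1877 and 1670.5 FPKM in dermal fibroblasts, with a log2 difference of 8.20 ± 0.31 (SE), adjusted p = 7.71e-08. Tyrp1, the related enzyme of eumelanin synthesis, had 1561 and 1063 FPKM in melanocytes, against 1.20 to 9.76 FPKM (median 3.47) over the 8 libraries of the other populations, and 611 and 667 FPKM in dermal fibroblasts. In both genes the papilla was the highest of the 4 other populations, at 19.3 and 22.7 FPKM for Dct and 7.15 and 9.76 FPKM for Tyrp1.

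Structural proteins of the melanosome followed the enzymes. Pmel, the protein of the amyloid fibrils on which melanin is laid down, had 3124 and 1632 FPKM in melanocytes, against 2.21 to 16.9 FPKM (median 4.34) over the 8 libraries of the other populations, and 1164 and 878 FPKM in dermal fibroblasts (log2 difference 8.51 ± 0.34 (SE), adjusted p = 8.66e-08). Mlana, a small melanosomal membrane protein, was among the most abundant of these transcripts, with 5039.9 and 5033 FPKM in melanocytes, against 2.58 to 47.1 FPKM (median 8.71) over the 8 libraries of the other populations, and 3369 and 3140.1 FPKM in dermal fibroblasts. Its papilla values were 47.1 and 36.5 FPKM, the highest outside melanocytes and fibroblasts. Gpnmb, a relative of Pmel, was the least separated of the abundant members, with 780.2 and 498 FPKM in melanocytes and 36 and 59.6 FPKM in matrix, and 256 and 258 in dermal fibroblasts. Transporters of the melanosomal membrane were lower in level and as clearly separated. Slc45a2 had 903 and 1479 FPKM in melanocytes, against 0.520 to 5.80 FPKM (median 1.91) over the 8 libraries of the other populations, and 303 and 351 FPKM in dermal fibroblasts. Oca2, a chloride channel of the melanosome, had 167 and 118 FPKM in melanocytes, against 0 to 0.546 FPKM (median 0.209) over the 8 libraries of the other populations, and 69.1 and 66.1 FPKM in dermal fibroblasts, and Slc24a5, a cation exchanger, had 331 and 428 FPKM in melanocytes, against 0.621 to 4.98 FPKM (median 0.799) over the 8 libraries of the other populations, and 188 and 249 FPKM in dermal fibroblasts. Gpr143, a receptor inside the pigment cell, had 109.7 and 86.4 FPKM in melanocytes, against 0 to 1.07 FPKM (median 0.153) over the 8 libraries of the other populations, and 41.2 and 34.8 FPKM in dermal fibroblasts. The 14 members ranged in log2 difference from 3.08 (Tmem163) to 8.83 (Mlana).

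**Figure D2:**
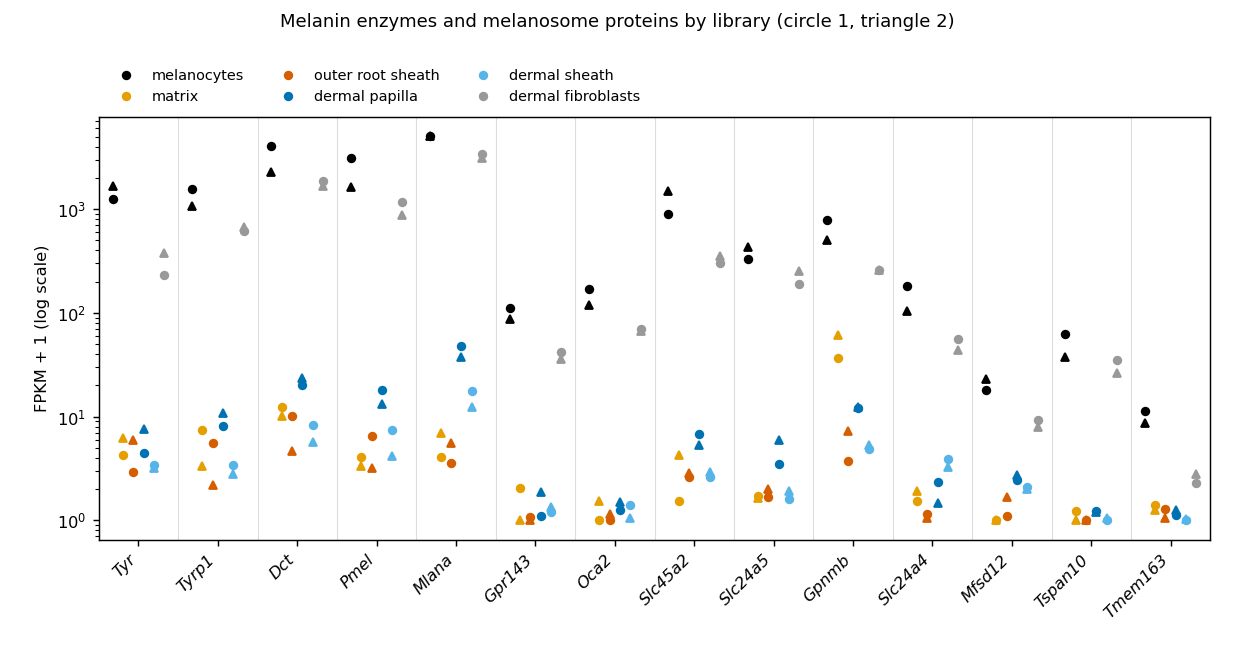
FPKM + 1 on a log axis of the 14 melanin enzymes and melanosome proteins in each library, with melanocytes first and dermal fibroblasts last for each gene. Both melanocyte points lie above all 8 points of matrix, outer root sheath, papilla and sheath for every gene, and the fibroblast points lie between them and the rest.

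Promoters of these genes were read because Mitf binds the letters TCATGTG within the M-box, a motif known from melanin genes. RefSeq windows of 300 bases around the start of the gene (build GRCm38.p6) are shown for the 4 most abundant of the top restricted genes that have a match, with TCATGTG or its reverse complement CACATGA in capitals. They are Tyr on the minus strand at chr7:87493463-87493762, Tyrp1 on the plus strand at chr4:80833963-80834262, Dct on the minus strand at chr14:118052197-118052496 and Trpm1 on the plus strand at chr7:64153585-64153884, each written 5′ to 3′ on its own strand.
Tyr: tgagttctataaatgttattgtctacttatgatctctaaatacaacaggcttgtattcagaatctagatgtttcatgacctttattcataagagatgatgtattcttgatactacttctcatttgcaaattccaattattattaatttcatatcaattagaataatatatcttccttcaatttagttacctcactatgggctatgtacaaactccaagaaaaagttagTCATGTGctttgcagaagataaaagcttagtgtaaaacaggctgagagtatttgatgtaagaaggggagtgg
Tyrp1: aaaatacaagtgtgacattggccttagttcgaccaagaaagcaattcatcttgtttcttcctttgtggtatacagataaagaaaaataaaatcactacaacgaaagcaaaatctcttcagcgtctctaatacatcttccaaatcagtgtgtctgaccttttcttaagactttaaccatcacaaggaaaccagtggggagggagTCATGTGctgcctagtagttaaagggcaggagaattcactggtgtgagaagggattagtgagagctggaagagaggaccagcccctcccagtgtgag
Dct: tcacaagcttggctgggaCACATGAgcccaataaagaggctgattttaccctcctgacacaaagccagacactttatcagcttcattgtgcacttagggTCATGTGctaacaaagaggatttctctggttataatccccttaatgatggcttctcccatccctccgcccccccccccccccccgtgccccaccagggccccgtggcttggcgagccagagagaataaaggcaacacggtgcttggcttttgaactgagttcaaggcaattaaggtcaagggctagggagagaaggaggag
Trpm1: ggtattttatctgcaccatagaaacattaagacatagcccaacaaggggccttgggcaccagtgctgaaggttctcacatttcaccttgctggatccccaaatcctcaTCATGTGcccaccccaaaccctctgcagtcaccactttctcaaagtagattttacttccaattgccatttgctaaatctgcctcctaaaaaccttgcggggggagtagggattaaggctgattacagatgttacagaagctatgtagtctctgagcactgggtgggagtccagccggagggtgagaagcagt

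TCATGTG on either strand stood in 6 of 15 windows (40%) of the 20 most restricted genes, 13 of which were in the promoter table. It stood in 13 of 54 windows (24.1%) of the 51 genes at least 16-fold above the rest, of which 34 were in the table. Over all 1354 restricted genes with at least 5 FPKM, 58 of 1360 windows (4.26%) held it, against 169 of 7935 (2.13%) for all tested genes at that level in melanocytes and 1239 of 32851 (3.77%) in the whole table. CATGTG, which the longer motif contains, was in 138 of 1360 windows of restricted genes and in 625 of 7935 windows of the tested genes at that level. The E-box CACGTG was in 12.2% against 10.7%, ACAATG, read by Sox factors, in 7.79% against 7.12%, and ACAAAG, a letter run of Sox and Tcf sites, in 13.2% against 13.1%. Among the windows of the 51 genes at least 16-fold above the others, ACAAAG was in 17 of 54 (31.5%), ACAATG in 7 of 54 (13%) and CACGTG in 6 of 54 (11.1%). Among those of the 20 most restricted genes ACAAAG was in 5 of 15 (33.3%), ACAATG in 1 of 15 (6.67%) and CACGTG in 1 of 15 (6.67%). CATGTG was in 19 of 54 (35.2%) and 8 of 15 (53.3%), against 7.88% of windows of all tested genes at that level. A higher share than among those tested genes was thus seen in both sets for ACAAAG as well as for TCATGTG and CATGTG. For ACAATG it was seen among the 51 genes and not among the 20. CACGTG stood at 11.1% and 6.67% against 10.7%. A match is a run of letters and was not tested as a binding site. Besides the 4 genes shown, Mc1r, Slc24a5, Slc7a11, Myo7a, Tspan10, Hpgds, Cpne4, Gjb1 and Gm10863 held TCATGTG in a window.

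The gene with the largest separation was a microRNA entry. Mir211 was listed at 11796 and 7750.1 FPKM in melanocytes, at 0 in all 8 libraries of the other populations and at 1818 and 726 FPKM in dermal fibroblasts. The hairpin lies in an intron of Trpm1 on the same strand, at chr7:64205806-64205911 in GENCODE M21, and touches none of its exons. Reads of unspliced Trpm1 and of the hairpin cannot be told apart there, and values of so short a feature are uncertain. Mature microRNAs were not measured. The mature sequence of mmu-miR-211-5p, from RefSeq (GRCm38.p6, chr7:64205831-64205852, plus strand), is shown beside mmu-miR-204-5p (chr19:22750610-22750631, plus strand), which has the same seed (bases 2 to 8, in capitals) and comes from an intron of Trpm3.
mmu-miR-211-5p: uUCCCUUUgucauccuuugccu
mmu-miR-204-5p: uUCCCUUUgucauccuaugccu

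The host genes of this seed family had separate places. Trpm1, a cation channel, had 1436 and 1241 FPKM in melanocytes, against 0.974 to 4.97 FPKM (median 2.03) over the 8 libraries of the other populations, and 390.1 and 298 FPKM in dermal fibroblasts, with a log2 difference of 8.75 ± 0.25 (SE), adjusted p = 3.18e-08. Trpm3, looked up after its values were seen, had 0.0585 and 0 FPKM in melanocytes and 76.7 and 96.1 FPKM in dermal papilla. Ptgds, the prostaglandin D synthase, ranked after Mir211, with 6131 and 2879.8 FPKM in melanocytes, against 1.65 to 11.7 FPKM (median 2.51) over the 8 libraries of the other populations, and 1155 and 935 FPKM in dermal fibroblasts (log2 difference 9.75 ± 0.34 (SE), adjusted p = 5.64e-08). The first melanocyte library held more than the second, and both lay far above every library of the 4 other populations.

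Further genes among the 20 most restricted have roles outside melanin chemistry. Mcoln3, a cation channel of endosomes and lysosomes, had 192 and 147 FPKM in melanocytes, against 0.0550 to 0.568 FPKM (median 0.172) over the 8 libraries of the other populations, and 40.4 and 35.3 FPKM in dermal fibroblasts (log2 difference 7.11 ± 0.23 (SE), adjusted p = 5.10e-08). St3gal6, a sialyltransferase, had 184 and 152 FPKM in melanocytes, against 0 to 2.32 FPKM (median 0.897) over the 8 libraries of the other populations, and 24.8 and 28.4 FPKM in dermal fibroblasts. Glrb, the beta subunit of the glycine receptor, had 88.8 and 163 FPKM in melanocytes, against 0.246 to 1.24 FPKM (median 0.729) over the 8 libraries of the other populations, and 19 and 31.3 FPKM in dermal fibroblasts. Lmo2, a LIM-domain cofactor known from blood formation, had 82.2 and 235 FPKM in melanocytes, against 0 to 1.93 FPKM (median 0.871) in the others, with 42.9 and 41.8 in dermal fibroblasts. Its melanocyte libraries stood apart from each other, yet both lay above all 8 others. Npy, which encodes neuropeptide Y, had 1656 and 2467 FPKM in melanocytes, against 0.627 to 52.2 FPKM (median 6.22) over the 8 libraries of the other populations, and 2392 and 2082 FPKM in dermal fibroblasts. It was the only one of the 20 whose fibroblast mean lay above the melanocyte mean, at 109% of it.

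Of 24 listed melanocyte transcription factors, all in the table and 22 tested, 15 were higher, 4 lower and 3 not called, and 12 were restricted. The shares over all tested genes were 10.5% higher, 15.5% lower and 11.2% restricted. The median log2 difference of the list was 2.96. Against matrix 13 were higher and 2 lower, and against outer root sheath 15 and 2. Against dermal papilla 13 were higher and 4 lower, and against dermal sheath 14 and 3. Mitf had 237 and 252 FPKM in melanocytes, against 1.04 to 7.42 FPKM (median 2.64) over the 8 libraries of the other populations, and 45.8 and 79.4 FPKM in dermal fibroblasts, with a log2 difference of 5.99 ± 0.24 (SE), adjusted p = 8.66e-08. Sox10, its neural crest activator, had 110.2 and 74.4 FPKM in melanocytes, against 0 to 2.24 FPKM (median 0.568) over the 8 libraries of the other populations, and 71.2 and 38.5 FPKM in dermal fibroblasts (log2 difference 5.85 ± 0.25 (SE), adjusted p = 1.35e-07). Pax3 had 72.6 and 72.7 FPKM in melanocytes, against 0 to 0.581 FPKM (median 0.162) over the 8 libraries of the other populations, and 21.2 and 23.4 FPKM in dermal fibroblasts (log2 difference 5.94 ± 0.20 (SE), adjusted p = 5.64e-08). Irf4, an interferon regulatory factor that acts with Mitf on Tyr, had 119.9 and 91.3 FPKM in melanocytes, against 0 to 0.380 FPKM (median 0.171) over the 8 libraries of the other populations, and 20.9 and 26.4 FPKM in dermal fibroblasts (log2 difference 6.48 ± 0.21 (SE), adjusted p = 5.10e-08). The highest value of these 4 genes in the 8 other libraries was 7.42 FPKM, for Mitf in dermal sheath.

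Ets1, Tbx2, Tbx3, Nr4a3 and Foxd3 were restricted too, while other factors were shared with neighbours. Tfap2a and Tfap2b were restricted, yet Tfap2b had 168 and 291 FPKM in melanocytes against 47.2 to 58.7 FPKM in matrix and outer root sheath, with 41.1 and 51.4 in dermal fibroblasts. Tfeb, a relative of Mitf and a regulator of lysosome genes, had 96 and 52.9 FPKM in melanocytes, against 1.05 to 11.3 FPKM (median 3.17) over the 8 libraries of the other populations, and 55.4 and 33 FPKM in dermal fibroblasts. Tfe3, another relative, had 10.1 and 10.5 FPKM in melanocytes and 8.71 to 14.9 FPKM (median 9.82) in the others, with 13 and 9.64 in dermal fibroblasts, and was not called. Lef1, a nuclear effector of WNT signalling, had 76.7 and 119 FPKM in melanocytes, 105 and 115 in matrix and 101 and 104 in dermal papilla, and 19.5 and 13.1 in outer root sheath and 7.27 and 8.38 in dermal sheath, with 38.6 and 34.9 in dermal fibroblasts. It was higher in melanocytes than in outer root sheath and dermal sheath and not called against matrix or papilla. Foxd3, which holds neural crest cells back from the pigment lineage, had 13.7 and 6.22 FPKM in melanocytes, against 0 to 1.07 FPKM (median 0.185), with 13.3 and 6.81 in dermal fibroblasts. Among the 4 lower factors, Sox9 had 1.89 and 0.936 FPKM in melanocytes and 60.4 and 101 in outer root sheath, and Sox2 had 0.108 and 0.0444 FPKM in melanocytes and 11.2 and 7.97 in dermal papilla. Snai2 and Hes1 were the other lower factors.

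The machinery that builds and moves melanosomes was higher in part. Of 34 entries, 32 in the table and 31 tested, 17 were higher, 0 lower and 14 not called in limma, with a median log2 difference of 1.04 and 0 lower at an unadjusted p under 0.05. Against matrix 17 were higher and 1 lower, and against outer root sheath 18 and 0. Against dermal papilla 17 were higher and 0 lower, and against dermal sheath 16 and 0 in limma. At an unadjusted p under 0.05, the counts given as 0 were 0 lower than in outer root sheath, 1 lower than in dermal papilla and 1 lower than in dermal sheath. Rab27a, Mlph and Myo5a form the bridge that carries melanosomes along actin. Rab27a had 190.3 and 141 FPKM in melanocytes, against 0.344 to 13.1 FPKM (median 2.54) over the 8 libraries of the other populations, and 45 and 46.2 FPKM in dermal fibroblasts (log2 difference 5.54 ± 0.37 (SE), adjusted p = 1.91e-06), and Mlph had 164 and 172 FPKM in melanocytes, against 0.141 to 6.56 FPKM (median 1.18) over the 8 libraries of the other populations, and 57 and 43.7 FPKM in dermal fibroblasts (log2 difference 6.08 ± 0.32 (SE), adjusted p = 4.57e-07). Myo5a, the motor, was less exclusive, with 236 and 207 FPKM in melanocytes, against 10.4 to 44 FPKM (median 20.2) over the 8 libraries of the other populations, and 46.5 and 61.6 FPKM in dermal fibroblasts (log2 difference 3.41 ± 0.20 (SE), adjusted p = 9.01e-07). Rab38, which delivers enzymes to the melanosome, had 215 and 243 FPKM in melanocytes, against 1.11 to 10.7 FPKM (median 5.25) over the 8 libraries of the other populations, and 93.2 and 106 FPKM in dermal fibroblasts, and its relative Rab32 had 49.4 and 36 FPKM in melanocytes against 1.20 to 7.40 FPKM (median 2.98), with 10 and 10.9 in dermal fibroblasts. Sytl2, which links Rab27 to membranes, had 97.3 and 117 FPKM in melanocytes and 24.2 and 37.6 FPKM in matrix, with 41.6 and 51.4 in dermal fibroblasts. Subunits of the sorting complexes were unequal. Hps3, Hps4 and Hps5 were higher, with log2 differences of 2.66 ± 0.21, 1.87 ± 0.23 and 1.28 ± 0.21 (SE), whereas Hps1 (0.82 ± 0.23) and Hps6 (0.00 ± 0.38) were not called. Bloc1s5 was higher by 1.56 ± 0.23 (SE), and Bloc1s1, Bloc1s3, Bloc1s4 and Bloc1s6 were not called.

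Lysosomal genes were higher as a group in counts. Of 44 entries, 43 in the table and tested, 26 were higher, 1 lower and 16 not called, and 26 were restricted. Beside this, 10.5% of all tested genes were higher, 15.5% lower and 11.2% restricted. The median log2 difference of the list was 1.21. Against matrix 36 of the 43 were higher and 0 lower, against outer root sheath 32 and 0, against dermal papilla 20 and 3, and against dermal sheath 16 and 3. At an unadjusted p under 0.05, 0 were lower than in matrix and 0 lower than in outer root sheath in limma. Mcoln3, described above, led the list. Atp6v0a1, a subunit of the proton pump, had 233 and 184 FPKM in melanocytes, against 8.44 to 28.3 FPKM (median 16) over the 8 libraries of the other populations, and 78.4 and 71.2 FPKM in dermal fibroblasts (log2 difference 3.68 ± 0.19 (SE), adjusted p = 3.63e-07). Atp6v1b2, another pump subunit, had 255 and 149 FPKM in melanocytes, against 16.3 to 30 FPKM (median 18.3) over the 8 libraries of the other populations, and 56.2 and 60.4 FPKM in dermal fibroblasts (log2 difference 3.23 ± 0.22 (SE), adjusted p = 2.04e-06). Hexa, a hexosaminidase subunit, had 86.5 and 64 FPKM in melanocytes, 58.2 and 49.8 in dermal sheath and 1.26 and 0.739 in matrix. It was higher against the mean of 4 but not against dermal sheath, and against both dermal populations together it was not called (log2 difference 0.77). Ctsk, the collagen-degrading cathepsin, was the lower member, with 1.88 and 1.02 FPKM in melanocytes and 109 and 104 in dermal sheath.

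Receptors for signals of the follicle divided sharply. Of 26 listed, all tested, 5 were higher, 14 lower and 7 not called, with a median log2 difference of -1.62. Among all tested genes 10.5% were higher and 15.5% lower. Against matrix 7 were higher and 11 lower, and against outer root sheath 7 and 12. Against dermal papilla 6 were higher and 15 lower, and against dermal sheath 4 and 15. The 5 higher against the mean of 4 were Kit, Ednrb, Mc1r, Met and Erbb3. Kit, the receptor of Kit ligand, had 683 and 784 FPKM in melanocytes, against 1.33 to 21.7 FPKM (median 4.29) over the 8 libraries of the other populations, and 154 and 166 FPKM in dermal fibroblasts (log2 difference 7.03 ± 0.26 (SE), adjusted p = 7.47e-08). Mc1r, the melanocortin receptor, had 344 and 426 FPKM in melanocytes, against 0.301 to 2.12 FPKM (median 0.766) over the 8 libraries of the other populations, and 146 and 129 FPKM in dermal fibroblasts (log2 difference 7.66 ± 0.25 (SE), adjusted p = 5.10e-08). Met, the receptor of hepatocyte growth factor, had 137 and 117 FPKM in melanocytes, against 0.0565 to 10.2 FPKM (median 1.12) over the 8 libraries of the other populations, and 34 and 46.1 FPKM in dermal fibroblasts (log2 difference 5.61 ± 0.24 (SE), adjusted p = 1.45e-07), with outer root sheath next at 7.21 and 10.2 FPKM.

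Ednrb, the endothelin receptor of melanoblasts, was not restricted. It had 602 and 458 FPKM in melanocytes, 0.599 and 0.837 in matrix, 1.41 and 0.604 in outer root sheath, 27.5 and 40.2 in dermal papilla and 695 and 1272 in dermal sheath, and 102 and 137 FPKM in dermal fibroblasts. Both sheath values lay above both melanocyte values, and that difference was not called (log2 difference melanocytes minus sheath -0.84 ± 0.34 (SE), adjusted p = 0.0736). Against the mean of 4 it was higher by 4.86 ± 0.27 (SE). Erbb3, a neuregulin receptor, had 34.8 and 31.2 FPKM in melanocytes and 26.4 and 19.7 in matrix, and was not called against matrix alone or against matrix and outer root sheath together.

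Receptors that were lower included several for growth factors. Fgfr2 had 2.09 and 0.943 FPKM in melanocytes, against 28 to 212 FPKM (median 138) over the 8 libraries of the other populations, and 44.8 and 47.2 FPKM in dermal fibroblasts (log2 difference -5.42 ± 0.20 (SE), adjusted p = 7.47e-08), so all 8 other libraries and both fibroblast libraries lay above melanocytes. Fgfr1, Axl, Erbb2, Igf1r and Notch1 were lower, with log2 differences of -3.17 ± 0.22, -4.21 ± 0.29, -2.23 ± 0.20, -1.37 ± 0.18 and -1.87 ± 0.25 (SE). Ngfr, a marker of early neural crest cells and of Schwann cells, had 0.0813 and 0 FPKM in melanocytes, against 0.798 to 25.1 FPKM (median 4.26) in the others, with 3.04 and 1.85 in dermal fibroblasts.

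Most listed ligands were lower in melanocytes than in the mean of the surrounding populations. Of 26 entries, 25 in the table and 23 tested, 1 was higher, 17 lower and 5 not called, with a median log2 difference of -1.43. Of the 25, 16 stood under 1 FPKM in both melanocyte libraries, where 11236 and 10951 of all 19150 genes reached 1 FPKM. Some were low everywhere, with Wnt3a at most 0.144 and Nrg1 at most 1.05 FPKM in the 8 other libraries. Against matrix 2 were higher and 8 lower, and against outer root sheath 2 and 11. Against dermal papilla 2 were higher and 13 lower, and against dermal sheath 0 and 15 in limma. At an unadjusted p under 0.05, the counts given as 0 were 1 higher than in dermal sheath. Kitl, which encodes Kit ligand, had 1.96 and 1.43 FPKM in melanocytes, 16 and 27.4 in matrix, 4.68 and 4.93 in outer root sheath, 1.86 and 2.83 in dermal papilla and 1.34 and 2.52 in dermal sheath, with 10.9 and 17.3 in dermal fibroblasts. It was lower in melanocytes than in matrix and outer root sheath and not called against papilla or sheath, and its call against the mean (log2 difference -1.14 ± 0.28 (SE), adjusted p = 0.00858) was lost without the second melanocyte library (log2 difference -0.995), with a pseudocount of 5 and with quantile normalization. Edn3, which encodes endothelin 3, had 0.276 and 0.362 FPKM in melanocytes and 285 and 249 in dermal papilla, with 18.1 and 31.5 in dermal sheath and at most 0.445 in matrix and outer root sheath. Against matrix and outer root sheath alone the log2 difference of Edn3 was 0.13 and was not called. The gene of agouti protein, a, was listed at 0 in both melanocyte libraries and had 177 and 127 FPKM in dermal papilla. Its span overlaps those of Raly and Eif2s2 in GENCODE M21. Hgf was listed at 0 in melanocytes, matrix and outer root sheath and had 3.09 and 2.89 FPKM in papilla. Pomc, the precursor of melanocortin, stayed at or under 1.89 FPKM in these 10 libraries. Edn1 had 0.899 and 0 FPKM in melanocytes, against 9.24 and 8.10 in outer root sheath, where it was highest, and its call was lost without the second melanocyte library (log2 difference -0.92), with a pseudocount of 5, without the filter on low values and against the dermal populations alone.

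The 4 ligands named for the size of their difference were all lower in melanocytes than in each of the 4 populations. Sfrp1, a secreted WNT inhibitor, had 2.16 and 0.622 FPKM in melanocytes, 839 and 857 in papilla and 117 and 153 in outer root sheath (log2 difference -5.33 ± 0.31 (SE), adjusted p = 7.89e-07). Bmp4 had 0.670 and 0.447 FPKM in melanocytes and 370.1 and 258 in papilla (log2 difference -4.46 ± 0.27 (SE), adjusted p = 9.92e-07). Jag1, a Notch ligand, had 1.20 and 1.17 FPKM in melanocytes, against 21 to 79 FPKM (median 32.3), with 5.85 and 5.83 in dermal fibroblasts. Tgfb3 had 0.357 and 0.690 FPKM in melanocytes, against 2.23 to 40 FPKM (median 28.3), with 23.5 and 23.8 in dermal fibroblasts. Dkk3 was the single higher member, with 137 and 174 FPKM in melanocytes and 83.9 and 98.2 in dermal sheath, and 97.4 and 119 in dermal fibroblasts.

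**Figure D3:**
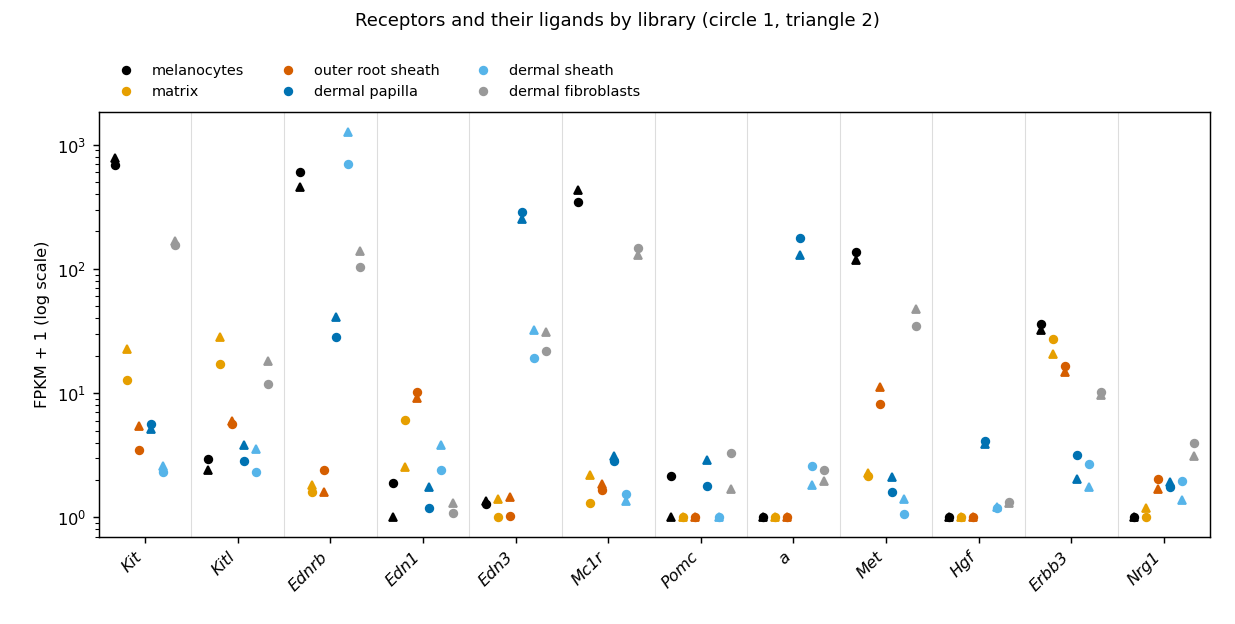
FPKM + 1 on a log axis of receptors and their ligands in each library, melanocytes first and dermal fibroblasts last for each gene. Melanocytes hold Kit, Mc1r and Met, dermal sheath exceeds them in Ednrb, matrix leads in Kitl, and dermal papilla leads in Edn3, a and Hgf.

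Neural crest and glial genes differed between the contrasts. Of 32 entries, all in the table and 27 tested, 9 were higher, 10 lower and 8 not called, with a median log2 difference of -0.46. Against matrix 11 were higher and 2 lower, and against outer root sheath 10 and 5. Against dermal papilla 9 were higher and 13 lower, and against dermal sheath 9 and 12. Fabp7, a brain-type fatty acid binding protein of glial precursors, had 239.6 and 207 FPKM in melanocytes, against 0 to 4.75 FPKM (median 0.847) over the 8 libraries of the other populations, and 73.8 and 118 FPKM in dermal fibroblasts (log2 difference 6.81 ± 0.28 (SE), adjusted p = 1.11e-07). Gpm6a, a membrane glycoprotein, had 81.6 and 183 FPKM in melanocytes and 28 and 50.6 in papilla. The myelin genes Mbp and Prx were at most 0.340 FPKM in melanocytes. The 10 Schwann cell markers summed to 324 and 279.9 FPKM in melanocytes, against 39.8 and 31.9 in matrix, 55.4 and 50.3 in outer root sheath, 177 and 208 in dermal papilla and 495 and 735 in dermal sheath, with 449.8 and 573 in dermal fibroblasts. Of the 9 tested, 3 were higher in melanocytes and 4 lower against the mean of 4, and their part in the glial genes was not tested.

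Among 33 adhesion genes, all tested, 5 were higher, 16 lower and 12 not called, with a median log2 difference of -0.92. Against matrix 11 were higher and 15 lower, and against outer root sheath 7 and 19. Against dermal papilla 4 were higher and 15 lower, and against dermal sheath 8 and 17. Cdh1, which encodes E-cadherin, had 122 and 83.4 FPKM in melanocytes, 147 and 118 in matrix, 122 and 123 in outer root sheath, 7.96 and 5.49 in papilla and 5.61 and 7.42 in sheath, with 29.5 and 31.7 in dermal fibroblasts. Melanocytes thus lay with the epithelial populations, and the call against the mean of 4 (log2 difference 1.72 ± 0.22 (SE), adjusted p = 1.27e-04) came from the dermal ones. Against matrix and outer root sheath together the log2 difference was -0.33 and was not called. Cdh3, which encodes P-cadherin, had 183 and 130.4 FPKM in melanocytes, 126 and 110.5 in matrix and 123 and 125 in outer root sheath, was restricted by a small gap, and was not called against those 2 populations together (log2 difference 0.35). Cdh2, which encodes N-cadherin, had 10.8 and 6.96 FPKM in melanocytes, 12.2 and 14.4 in papilla and at most 0.0551 in matrix and outer root sheath, and was not called against the dermal populations alone or with a pseudocount of 5. The 5 desmosomal members of the list, Dsp, Dsc3, Dsg3, Pkp1 and Jup, were lower, with log2 differences of -3.29 ± 0.21, -3.69 ± 0.23, -3.04 ± 0.24, -2.87 ± 0.20 and -1.82 ± 0.21 (SE). Dsp, desmoplakin, had 7.51 and 5.60 FPKM in melanocytes and 346 and 388 in matrix (log2 difference -3.29 ± 0.21 (SE), adjusted p = 1.47e-06), and Dsc3 had 0.807 and 1.74 FPKM in melanocytes and 111 and 154 in matrix. Itgb5, an integrin subunit, had 0.986 and 0.229 FPKM in melanocytes, against 12.6 to 101 FPKM (median 28), with 39.3 and 31.5 in dermal fibroblasts, and Cd9, a tetraspanin, had 11.4 and 12.8, against 92.1 to 309 FPKM (median 174), with 88.7 and 97.2 in dermal fibroblasts. Krt5, a basal keratinocyte keratin, had 18.3 and 11 FPKM in melanocytes, against 121 and 70 in dermal papilla and 71.9 and 44.7 in dermal sheath, and the part of keratinocyte transcripts in these desmosomal differences was not tested.

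Signalling through Ras and MAP kinase was described from 28 entries, 27 in the table and 25 tested. Of these, 6 were higher, 2 lower and 17 not called (median log2 difference 0.31). For comparison, 10.5% of all tested genes were higher and 15.5% lower. Against matrix 7 were higher and 4 lower, and against outer root sheath 5 and 2. Against dermal papilla 7 were higher and 3 lower, and against dermal sheath 7 and 2. The higher members included transcriptional outputs of the pathway. Etv5, an ETS factor, had 264 and 554 FPKM in melanocytes, against 14.2 to 30.3 FPKM (median 23.2) over the 8 libraries of the other populations, and 105 and 132 FPKM in dermal fibroblasts (log2 difference 4.03 ± 0.25 (SE), adjusted p = 1.11e-06). Dusp4, a phosphatase that damps the pathway, had 136 and 169.7 FPKM in melanocytes, against 1.05 to 19 FPKM (median 6.71) over the 8 libraries of the other populations, and 55.2 and 44.2 FPKM in dermal fibroblasts (log2 difference 4.25 ± 0.34 (SE), adjusted p = 5.43e-06). Etv1 had 22.7 and 81.6 FPKM in melanocytes and 14.2 and 23 in papilla, so it was not restricted. Spry1, another inhibitor of the pathway, was lower, with 4.89 and 4.59 FPKM in melanocytes and 168 and 132 in papilla (log2 difference -2.56 ± 0.21 (SE), adjusted p = 6.32e-06). The kinases Braf and Mapk3 were not called, with log2 differences of -0.14 and 0.09.

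In cAMP and melanocortin signalling (27 entries, 26 in the table, 25 tested), 7 genes were higher, 4 lower and 14 not called. Shares over all tested genes were 10.5% higher and 15.5% lower. The median log2 difference of the list was 0.42. Against matrix 12 were higher and 2 lower, and against outer root sheath 9 and 2. Against dermal papilla 6 were higher and 7 lower, and against dermal sheath 5 and 5. Ppargc1a, a coactivator of mitochondrial genes, had 14.6 and 11.7 FPKM in melanocytes, against 0.0546 to 3.16 FPKM (median 0.335) over the 8 libraries of the other populations, and 3.35 and 4.73 FPKM in dermal fibroblasts (log2 difference 3.14 ± 0.24 (SE), adjusted p = 4.58e-06). Adcy9, an adenylyl cyclase, had 17.3 and 17.9 FPKM in melanocytes, against 1.99 to 4.67 FPKM (median 2.72), with 7.49 and 4.71 in dermal fibroblasts. Adcy2 had 10.6 and 13.9 FPKM in melanocytes, 18.7 and 18 in dermal sheath and at most 0.0484 in matrix and outer root sheath, and was not called against the dermal populations alone. Pde4b, which degrades cAMP, was lower, with 1.89 and 0.886 FPKM in melanocytes, against 3.86 to 10.2 FPKM (median 7.29), with 2.50 and 4.65 in dermal fibroblasts (log2 difference -1.80 ± 0.26 (SE), adjusted p = 3.48e-04), and was not called with a pseudocount of 5.

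Of 19 WNT target genes, all tested, 6 were higher, 6 lower and 7 not called against the mean of 4 (median log2 difference -0.51). Against matrix 2 were higher and 8 lower, and against outer root sheath 9 and 5. Against dermal papilla 4 were higher and 7 lower, and against dermal sheath 7 and 3. Nkd1, a feedback inhibitor, had 56.3 and 97.7 FPKM in melanocytes and 30.1 and 32.1 in papilla (log2 difference 3.28 ± 0.25 (SE), adjusted p = 4.36e-06). Tcf7, a nuclear effector, had 77.2 and 73.6 FPKM in melanocytes and 24 and 24.4 in matrix (log2 difference 3.00 ± 0.33 (SE), adjusted p = 5.19e-05). Axin2, the common readout of the pathway, had 75.8 and 63 FPKM in melanocytes, 43.4 and 38.5 in matrix, 42.9 and 43.3 in papilla, 11.9 and 8.36 in outer root sheath and 2.81 and 3.84 in sheath, with 62.1 and 49.9 in dermal fibroblasts. The stem cell receptors Lgr5 and Lgr6 were lower, with 0.651 and 0.221 FPKM of Lgr5 in melanocytes and 93.9 and 102 in outer root sheath, and 0.155 and 0 FPKM of Lgr6 in melanocytes and 37.7 and 18 in outer root sheath.

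Cell cycle genes placed melanocytes between the epithelial and the dermal populations. Of 30 entries, 29 in the table and tested, 1 was higher, 1 lower and 27 not called against the mean of 4. Against matrix 23 of the 29 were lower and 1 higher, and against outer root sheath 22 were lower and 1 higher. Against dermal papilla 11 were higher and 0 lower, and against dermal sheath 19 were higher and 0 lower in limma, where 0 and 0 were lower at an unadjusted p under 0.05. Mki67, a marker of dividing cells, had 81.9 and 50.9 FPKM in melanocytes, 323 and 298 in matrix, 244 and 237 in outer root sheath, 22 and 23 in papilla and 14.5 and 16.2 in sheath, with 26.1 and 31.7 in dermal fibroblasts. Its log2 difference was -2.06 against the epithelial populations and 1.74 against the dermal ones, both past the threshold. Cdk2 was the 1 gene higher against all 4 populations, with 201 and 118 FPKM in melanocytes, against 4.76 to 19.2 FPKM (median 11.1) over the 8 libraries of the other populations, and 89.5 and 73 FPKM in dermal fibroblasts (log2 difference 3.74 ± 0.26 (SE), adjusted p = 2.42e-06). Its span on the minus strand of chromosome 10 (GENCODE M21, chr10:128697939-128705031) shares 837 bases with that of Pmel on the plus strand, and no source states that reads were counted by strand, so reads of Pmel and Cdk2 cannot be told apart in the overlap. Cdc20, the lower member, had 9.57 and 3.99 FPKM in melanocytes and 39.3 and 34.5 in matrix, and its call was lost without the second melanocyte library (log2 difference -0.68), with a pseudocount of 5 and against the dermal populations alone.

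Survival genes were mostly not called (2 higher, 4 lower and 12 not called of 18 tested, from 24 entries). As 10.5% of all tested genes were higher and 15.5% lower, nothing about survival genes is read from these counts. Against matrix 3 were higher and 4 lower, and against outer root sheath 3 and 4. Against dermal papilla 3 were higher and 2 lower, and against dermal sheath 2 and 4. Bcl2, which melanocyte stem cells need, had 37 and 37.5 FPKM in melanocytes, 60.6 and 79.6 in papilla and 13.4 and 14.9 in matrix, and was higher than in matrix alone. Bcl2l11, which encodes the pro-apoptotic protein Bim, had 50.7 and 55.7 FPKM in melanocytes, against 4.87 to 21.5 FPKM (median 7.68) over the 8 libraries of the other populations, and 11.1 and 17.6 FPKM in dermal fibroblasts (log2 difference 2.44 ± 0.23 (SE), adjusted p = 1.63e-05). Cdkn1a, the cell cycle inhibitor p21, had 14.4 and 6.34 FPKM in melanocytes and 129.9 and 129 in matrix (log2 difference -2.05 ± 0.28 (SE), adjusted p = 2.05e-04). Gas1 had 4.13 and 1.88 FPKM in melanocytes, 4.11 and 3.64 in matrix and 27.5 and 19.3 in dermal sheath. Pmaip1, another pro-apoptotic gene, had 0.383 and 0.0408 FPKM in melanocytes and 5.44 and 11.4 in matrix, and its call was lost without the second melanocyte library (log2 difference -1.47), with a pseudocount of 5 and against the dermal populations alone.

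Of 31 genes of oxidative stress and metal handling, 30 were tested, 7 were higher, 7 lower and 16 not called. Over all tested genes these shares were 10.5% higher and 15.5% lower. Against matrix 10 were higher and 8 lower, and against outer root sheath 11 and 7. Against dermal papilla 9 were higher and 6 lower, and against dermal sheath 8 and 6. Slc7a11, the cystine transporter that feeds pheomelanin and glutathione, had 107 and 432 FPKM in melanocytes, against 0.444 to 8.28 FPKM (median 1.06) over the 8 libraries of the other populations, and 27.3 and 58.3 FPKM in dermal fibroblasts (log2 difference 6.43 ± 0.43 (SE), adjusted p = 1.89e-06). The second melanocyte library held far more than the first, and both lay above every library of the other populations. Gstp1, a glutathione transferase, had 379.8 and 227 FPKM in melanocytes, against 6.98 to 74.1 FPKM (median 37.4) over the 8 libraries of the other populations, and 371 and 258 FPKM in dermal fibroblasts. Hmox1, heme oxygenase, had 29.5 and 14.8 FPKM in melanocytes and 16 and 9.47 in sheath, and was not called against the dermal populations alone. Mt1, a metallothionein, had 596 and 318 FPKM in melanocytes and 563 and 259.9 in matrix, and its call was lost without the first melanocyte library (log2 difference 1.41) and against matrix and outer root sheath alone. The respiratory chain gave 0 calls among 25 tested genes against the mean of 4 in limma, at a median log2 difference of 0.14, with 3 genes higher and 0 lower at an unadjusted p under 0.05. Against dermal papilla and against dermal sheath, 2 of its genes were higher in each case.

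**Figure D4:**
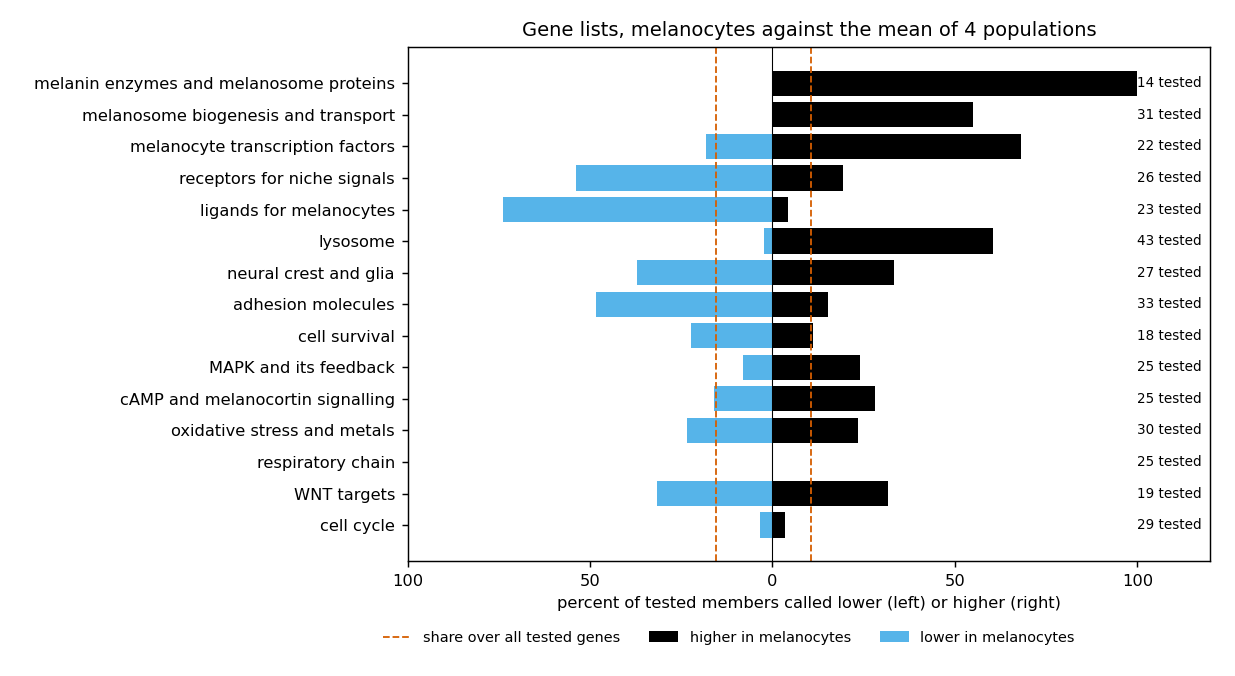
Percent of the tested members of each of 15 gene lists called higher (black, right) or lower (blue, left) in melanocytes against the mean of 4 populations; dashed lines mark the shares over all tested genes (10.5% and 15.5%). Melanin, lysosome and transcription factor lists reach farthest right, ligands and receptors farthest left, and cell cycle and respiratory chain lists lie within the dashed lines.

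Genes below all 8 others numbered 1478 of those tested (10.7%), with 631 at 5 FPKM or more in the lowest of the 4 populations. Without the first melanocyte library there were 2634. The 12 keratinocyte markers summed to 219 and 208 FPKM in melanocytes, against 452 and 299 in dermal papilla and 320.0 and 251 in dermal sheath, and their part in this count was not tested. Of the genes below all 8 others in melanocytes, 769 were left without those higher in matrix and outer root sheath than in dermal papilla and sheath, a setting chosen after seeing the data. The 10 with the widest gap included regulators that all 4 other populations share. S100a6, a calcium binding protein, had 10.1 and 2.76 FPKM in melanocytes, against 104 to 2871 FPKM (median 256) over the 8 libraries of the other populations, and 625 and 482 FPKM in dermal fibroblasts (log2 difference -5.93 ± 0.39 (SE), adjusted p = 1.77e-06). Nfix, a nuclear factor I protein, had 1.57 and 2.06 FPKM in melanocytes, against 35.5 to 241 FPKM (median 111) over the 8 libraries of the other populations, and 135 and 89.4 FPKM in dermal fibroblasts (log2 difference -5.26 ± 0.32 (SE), adjusted p = 1.05e-06). Gli1, the output of hedgehog signalling, had 0.312 and 1.07 FPKM in melanocytes, against 14.6 to 85.8 FPKM (median 38.2) over the 8 libraries of the other populations, and 8.05 and 4.69 FPKM in dermal fibroblasts (log2 difference -4.57 ± 0.32 (SE), adjusted p = 2.49e-06), and Wnt5a had 0.444 and 0.707 FPKM in melanocytes, against 16.1 to 121 FPKM (median 46.5) over the 8 libraries of the other populations, and 18.8 and 30.3 FPKM in dermal fibroblasts (log2 difference -4.82 ± 0.27 (SE), adjusted p = 6.35e-07). Ece1, the endothelin converting enzyme, had 6.42 and 3.18 FPKM in melanocytes, against 63.8 to 126 FPKM (median 111) over the 8 libraries of the other populations, and 46.5 and 38 FPKM in dermal fibroblasts. Efnb1, an ephrin, had 0.896 and 2.16 FPKM in melanocytes, against 23 to 40.3 FPKM (median 32.4), with 13.7 and 7.45 in dermal fibroblasts. Setbp1 had 0.643 and 0.225 FPKM in melanocytes, against 22.1 to 38 FPKM (median 30.9), with 16.8 and 19.5 in dermal fibroblasts, and Sertad4 had 2.22 and 0.346, against 30.4 to 144 FPKM (median 48.2), with 18.8 and 20.3 in dermal fibroblasts. Rnu12, a small nuclear RNA, was listed at 0 in both melanocyte libraries and had 24.5 to 323 FPKM (median 75.1) in the others, which is a short feature with wide spread.

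Few genes were shared with 1 neighbour alone. Both libraries of melanocytes and of matrix lay above the other 6 for 328 tested genes (2.38%), and the same held with outer root sheath for 194 (1.41%), with dermal papilla for 451 (3.27%) and with dermal sheath for 339 (2.46%). Matrix shared Cyfip2 (41.1 and 33.1 FPKM in melanocytes, 13.1 and 14.6 in matrix), and Tenm4 together with its antisense entry Gm15412. Tenm4 had 36.6 and 39.2 FPKM in melanocytes and 23.1 and 24.2 in matrix, and reads of the pair cannot be told apart without strand. Outer root sheath shared Slc7a8, an amino acid transporter, with 327 and 445 FPKM in melanocytes and 135 and 155 in outer root sheath, and also Met. Scrg1 was shared at 9.63 and 2.25 FPKM in melanocytes and 9.08 and 9.16 in outer root sheath, with the melanocyte libraries far apart, and its call was lost without the first of them (log2 difference 0.66), with a pseudocount of 5 and against matrix and outer root sheath alone. Papilla shared Gpm6a and Gpm6b, and Gpm6b had 64.2 and 150.2 FPKM in melanocytes and 28.1 and 55 in papilla. Sparc, a matricellular protein, had 665 and 1228 FPKM in melanocytes and 1181 and 1063 in papilla, was listed at 0 in both dermal sheath libraries, and had 7817 and 9367 FPKM in dermal fibroblasts. An exact 0 for a gene so abundant in mesenchyme can be a failed estimate. Dermal sheath shared Ednrb, Nav1 and Bhlhe41, a circadian repressor with 87.2 and 109.6 FPKM in melanocytes and 13.6 and 19.9 in sheath.

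Dermal fibroblasts, outside the comparison, also held transcripts of the most restricted genes, mostly at a lower level. For the 51 genes at least 16-fold above the 4 populations, the fibroblast mean had a median of 30.0% of the melanocyte mean (quartiles 22.2% and 45.5%), with medians of 0.332% in matrix, 0.200% in outer root sheath, 0.660% in dermal papilla and 0.354% in dermal sheath. All 51 lay higher in fibroblasts than in each of the 4 populations. The 16-fold cut itself keeps those 4 low and sets no limit for fibroblasts. The percentage differed between genes, from 13.0% for Mir211 to 109% for Npy, and 3 genes (Npy, Syngr1 and Cthrc1, named after their values were seen) were above 80%. Of the marker genes, Mlana stood at 64.6%, Sox10 at 59.4%, Dct at 55.8%, Pmel at 42.9% and Tyr at 21.1%. For all 1354 restricted genes with at least 5 FPKM the median was 49.7% in fibroblasts (45.7% and 52.7% in the 2 libraries) and 33.6% to 37.1% in the 4 populations. The rule holds the 4 populations below melanocytes by construction and leaves fibroblasts free, so part of this difference is fixed in advance. Among 8217 tested genes at that level in melanocytes, it was 78.5% in fibroblasts and 77.7% to 92.8% in the others. The fibroblast mean was above all 4 populations for 728 of the 1354 genes and above melanocytes for 50. Neither was counted over the 8217 genes, so no share over all genes stands beside these counts and nothing is read from them.

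**Figure D5:**
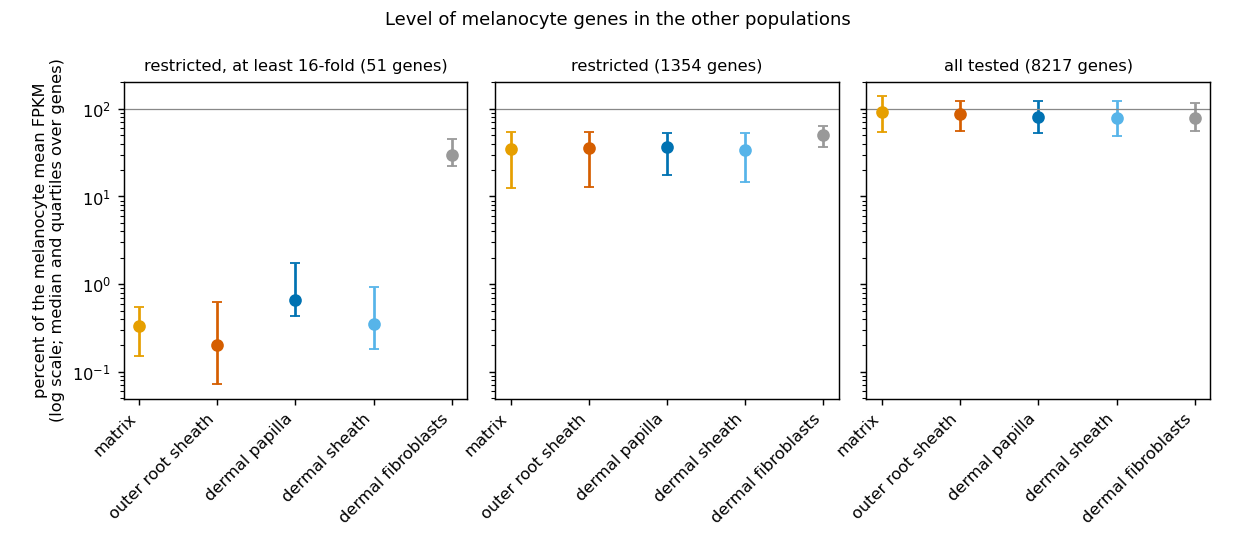
Level of genes in 5 populations as a percent of the melanocyte mean FPKM (log axis), as median and quartiles over genes, for the 51 restricted genes at least 16-fold above the 4 other populations, for all 1354 restricted genes with at least 5 FPKM, and for 8217 tested genes at that level. Fibroblasts stand at 30.0% for the 51 genes, where the 4 other populations have medians below 1%, and the 16-fold cut limits only those 4.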

How the data were processed

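RNA sequencing of 6 sorted populations, 2 libraries each, was used as deposited. The authors deposited FPKM values per gene, and the submitters' processing notes name TopHat2 2.0.3, Bowtie2, Cufflinks 2.1.1 and mm10. Per the labels' protocols, libraries were made from amplified cDNA with NuGEN Ovation kits, and no source states that reads were counted by strand. The number of reads per library is not given, so the 2 libraries per population set the precision, and the median SD within a population was 0.209 to 0.263 on the log2 scale. FPKM are not counts, so log2(FPKM + 1) was fitted with limma 3.58.1 in R 4.3.3 over 10 libraries, with an intensity trend and 5 residual degrees of freedom, for 13793 of 19150 genes, those that reached 1 FPKM in 2 or more of them. Tests were two-sided with Benjamini-Hochberg adjustment, and a call needed an adjusted p under 0.05 and an absolute log2 difference of at least 1. The script was tested on simulated data, with 50 genes above low values for each size of change. A log2 change of 1 was called for 36% of them and a change of 2 for 94%. A gene that was not called is therefore not shown to be unchanged.

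Named genes are the 20 restricted genes farthest above the highest other population and the 10 farthest below the lowest, both with at least 5 FPKM, the 3 most clearly shared with each population, the 4 with the largest absolute difference in each of 15 process lists, 36 fixed genes, and the 3 nearest the border of the rule on each side. Other list members were named after their values were seen. Some genes under the rule are not reported here, though they stay in the counts. Members and lists were chosen with earlier results of these data known. Positions are from GENCODE M21 and sequences from RefSeq (GRCm38.p6). Alternatives were other pseudocounts, filters, scalings and contrasts, a replicate block and leaving out each library.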

Additional observations from a re-analysis of the deposited data

Results flagged for a closer look

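Dermal fibroblast libraries, which entered no comparison, held the 5 melanocyte markers at a summed 6712 FPKM in the first and 6108 FPKM in the second library, against 15.5 to 89.1 FPKM over the 8 libraries of matrix, outer root sheath, dermal papilla and dermal sheath. Both values stood out as signal in libraries outside the comparison. Their source was not tested.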

How the results depend on the processing

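Of 106 genes tested under the naming rule, 97 were called and 82 kept the call under every alternative in which they were fitted. Over 2212 pairs of gene and alternative, 2170 kept direction and side of the threshold, 31 lost and 9 gained the call, and 2 reversed. These 2 were Cdh1, at -0.33, and Edn3, at 0.13, both against matrix and outer root sheath only, a contrast chosen after seeing the data. With a pseudocount of 5, counts of higher and lower genes were 841 and 1014 against the mean of 4, 1216 and 1110 against matrix, 1088 and 1094 against outer root sheath, 1070 and 1493 against dermal papilla, and 1186 and 1676 against dermal sheath, fewer because low values are compressed by construction. Melanocytes and matrix fitted alone gave 1301 and 1284, with fewer samples. A gap of at least 1 on the log2 scale left 439 restricted genes and 256 below all 8. Leaving out genes higher in the epithelial than in the dermal populations, also chosen after seeing the data, left 769 below all 8. Leaving out each library in turn gave 1226 to 1511 for genes higher in melanocytes than the mean of 4 populations, 1833 to 2291 for genes lower in melanocytes than the mean of 4 populations, 1612 to 1995 for genes higher in melanocytes than in matrix, 1579 to 1975 for genes lower in melanocytes than in matrix, 1404 to 1781 for genes higher in melanocytes than in outer root sheath, 1460 to 1961 for genes lower in melanocytes than in outer root sheath, 1181 to 1735 for genes higher in melanocytes than in dermal papilla, 1988 to 2798 for genes lower in melanocytes than in dermal papilla, 1473 to 2253 for genes higher in melanocytes than in dermal sheath, 2213 to 2818 for genes lower in melanocytes than in dermal sheath, 1581 to 2466 for melanocyte-restricted genes, 1529 to 2634 for genes below all 8 others in melanocytes, 45.7 to 54.2% for the fibroblast level of melanocyte-restricted genes. The highest counts of restricted genes and of genes below all 8 came without the first melanocyte library. With any library left out fewer values have to be cleared, so under this rule no count can fall. The ranges of these counts are therefore no check of stability. Quantile normalization moved the median log2 difference of all genes to 0.09 against papilla and 0.15 against sheath, and median scaling to -0.19 and -0.11, against -0.08 and 0.00 as reported. Libraries with the same number deviated together at correlations of 0.195 to 0.507 over 10 pairs of populations, but with 2 pairs in a contrast the numbers were not taken as pairs. A replicate block gave 1466 higher and 2157 lower genes against the mean of 4 and changed no call of a named gene. Low FPKM and unknown depth limit genes listed at 0.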

Other observations

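Of the 51 genes at least 16-fold above the 4 other populations, 28 were in none of the 15 process lists, and those given here were chosen after their values were seen. The second prostaglandin D synthase, Hpgds, had 23.1 and 31.3 FPKM in melanocytes, against 0 to 0.495 FPKM (median 0.264) over the 8 libraries of the other populations, and 4.18 and 4.62 FPKM in dermal fibroblasts. Ptgs1, which encodes a cyclooxygenase whose product both synthases use, had 0.983 and 0.113 FPKM in melanocytes and was highest in dermal papilla (6.36 and 6.87). Ptgs2, the other cyclooxygenase gene, had 0.0385 and 0.810 FPKM in melanocytes and was highest in outer root sheath (8.36 and 9.71). Plexins, receptors of semaphorins, were unequal. Plxnc1 had 118 and 118 FPKM in melanocytes, against 0.510 to 5.51 FPKM (median 0.545) over the 8 libraries of the other populations, and 25.8 and 29 FPKM in dermal fibroblasts, and Plxna4 had 44.7 and 64.8 FPKM in melanocytes, against 0.0674 to 1.32 FPKM (median 0.340) over the 8 libraries of the other populations, and 15 and 15.1 FPKM in dermal fibroblasts. Plxnb2 had 15.9 and 14.8 FPKM in melanocytes, against 25.4 to 51.3 FPKM (median 34.8) over the 8 others, with 23.9 and 16.3 in dermal fibroblasts. Sema7a, a ligand of Plxnc1, had 0.247 and 0.228 FPKM in melanocytes and 5.92 and 4.59 in matrix.

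Bace2, a protease that cuts Pmel, had 290.0 and 291 FPKM in melanocytes, against 0.838 to 6.01 FPKM (median 1.84) over the 8 libraries of the other populations, and 84.8 and 94.5 FPKM in dermal fibroblasts. Sox6, a SoxD factor, had 27.7 and 23.2 FPKM in melanocytes, against 0.0529 to 0.348 FPKM (median 0.194) over the 8 libraries of the other populations, and 3.95 and 6.53 FPKM in dermal fibroblasts. Rapgef4, an exchange factor that binds cAMP, had 65.1 and 88.4 FPKM in melanocytes, against 0.0792 to 2.22 FPKM (median 0.556) over the 8 others, with 14.7 and 18 in dermal fibroblasts. Slc15a1, a peptide transporter, had 48.3 and 142 FPKM in melanocytes, against 0.328 to 3.71 FPKM (median 0.484), with 33.6 and 45.6 in dermal fibroblasts, with the second melanocyte library above the first. Npy1r, a receptor of neuropeptide Y, had 9.92 and 9.44 FPKM in melanocytes, against 0.199 to 1.79 FPKM (median 0.806), with 3.00 and 3.60 in dermal fibroblasts. Fibroblast means of Syngr1 and Cthrc1 were 97.4% and 91.6% of the melanocyte means, with 112 and 65.9 FPKM of Syngr1 in melanocytes and 115 and 58.1 in fibroblasts, and 136 and 81.9 FPKM of Cthrc1 in melanocytes and 99.2 and 100.0 in fibroblasts.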
